A study of Saccharomyces cerevisiae with 18 samples.

Results

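The comparison set budding yeast that carried Nup60 with arginine in place of lysine 467 (K467R) against yeast with the normal lysine (WT). It used 12 of the 18 libraries of the series, the 6 labelled nup60-K467R-GFP::HIS3MX6 and the 6 labelled NUP60-GFP::HIS3(S.kluyveri), chosen by genotype alone, and every gene of the files was considered. The other 6 libraries carried the acetyl mimic K467N with the same marker as WT, nup60-K467N-GFP::HIS3(S.kluyveri), and were compared with K467R to ask whether a difference was larger or smaller with the other substitution. They also entered the same fit, so they bear on the error estimates of K467R against WT. All strains were of the S288C background and carried Nup60 fused to GFP, so the controls were tagged too. WT and K467N had the HIS3 gene of Saccharomyces kluyveri as marker, and K467R had HIS3MX6, a cassette built around the his5+ gene of fission yeast, so an effect of the substitution and an effect of the cassette cannot be told apart in any comparison with K467R. Unsynchronised cells had been grown in rich medium (2% glucose with added adenine) at 25 °C, from an optical density of 0.1 to 0.6-0.7. The question put by the submitters concerned a possible general role of acetylated Nup60 in transcription, and arginine, which keeps the positive charge and cannot be acetylated there, stands for lysine that is always deacetylated.

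Nup60 belongs to the nuclear basket, the filamentous structure on the nuclear face of the pore, where it holds other basket proteins such as Mlp1 and Nup2. The basket is known for roles in mRNA export, in tethering active genes to the pore and in the organisation of chromatin near the nuclear envelope. Lysine acetyltransferases and deacetylases act on basket proteins as well as on histones, and in budding yeast the deacetylase Hos3 acts on the pores of daughter cells, where entry into the cell cycle is delayed.

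The altered codon is shown because it is the only change the labels name inside a gene. It lies in the coding sequence of NUP60 (YAR002W) on the plus strand of chromosome I, which has 1620 bases and 539 codons before the stop in the R64 reference of RefSeq. The stretch of 51 bases around it reads 5′ to 3′ as follows, with the lysine codon AAA for residue 467 in capitals and 24 bases on either side.
NUP60 codon 467: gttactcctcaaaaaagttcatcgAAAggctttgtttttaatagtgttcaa
The bases that encode arginine in the mutant were not given by the labels, and reads were not examined for them.

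Poly(A) RNA was sequenced, and 12910660 to 15492932 reads per K467R library and 12395725 to 19093010 per WT library were counted on genes. Between 75.3 and 76.2% of the reads sorted by the counting program fell on genes, and 18.3 to 19.6% had several alignments and were set aside. Levels are given as CPM, that is, counts scaled to a common library size. For log2 fold changes, ± gives the edgeR standard error. Whether the libraries of 1 strain were grown as separate cultures is not in the labels, so p-values measure only the spread between these samples, which may be technical. Because RNA was taken from whole cultures, fewer cells with a transcript and less of it per cell cannot be told apart.

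The strains carried a-cell RNA. STE2, the receptor for alpha factor that a cells make, had 40340 counts over the WT libraries and 36247 over the K467R libraries, whereas the alpha-factor gene MF(ALPHA)1 had 11 and 12. The summed level of the 7 a-specific genes was 1154 to 1416 CPM in WT and 1114 to 1305 CPM in K467R, and that of the 5 alpha-specific genes 51.0 to 65.2 CPM and 44.1 to 56.5 CPM. No gene of either list was at 0 in either strain, and SAG1 and AFB1, counted among the alpha-specific genes, made up most of the second sum.

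NUP60 itself ranged from 77.0 to 93.1 CPM in WT, with a median of 85.2, and from 84.8 to 94.4 CPM in K467R, with a median of 87.9. The strains overlapped, and the log2 fold change was 0.07 ± 0.05 (edgeR quasi-likelihood test, Benjamini-Hochberg adjusted p = 0.747). Its RNA level does not check the label, since the substitution is a change of codon within the gene. The 3 tested genes on either side of it also did not pass. They were EFB1 at 0.07 ± 0.06, VPS8 at -0.14 ± 0.11 and TFC3 at -0.05 ± 0.06 on one side, and ERP1 at 0.09 ± 0.04, SWD1 at -0.01 ± 0.05 and RFA1 at 0.05 ± 0.03 on the other.

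Of 5660 genes tested between K467R and WT, 2 rose, AAD3 and RDS1, and 2 fell, HIS3 and PHM8. That is 0.0707% of the genes at an adjusted p under 0.05, with 0.0353% in each direction, in edgeR's quasi-likelihood test. The 6 K467R libraries did not overlap the 6 WT libraries for 16 genes, or 0.283%, and these 4 were among them. Without adjustment 321 genes had a p under 0.05, which is 5.67%, with 139 higher (2.46%) and 182 lower (3.22%). The log2 fold change was above 0 for 46.9% of tested genes, with a median of -0.0065.

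HIS3 (YOR202W), which encodes imidazoleglycerol-phosphate dehydratase of histidine synthesis, ranged from 78.5 to 95.8 CPM in WT, with a median of 84.5, and was at 0 CPM in 5 K467R libraries and 0.0710 CPM in the remaining one. Over the 6 libraries of each strain this was 7468 counts in WT and 1 in K467R, against 7394 in K467N. WT thus held 7488 times the HIS3 level of K467R (95% interval 1344 to 295807, which covers counting error only), and the difference passed the test (edgeR quasi-likelihood test, adjusted p = 1.53e-21). The groups lay far apart, with HIS3 counts present in both strains with the S. kluyveri marker and nearly absent in the strain with HIS3MX6. Whether reads of the S. kluyveri gene were counted as HIS3 was not tested. The labels do not give the allele at the native HIS3 locus of any strain. Lower expression of an intact gene and a difference in strain construction therefore cannot be told apart. The 3 tested genes on each side of HIS3 did not pass, with MRM1 at -0.03 ± 0.05 and DED1 at -0.06 ± 0.05 next to it and the other 4 between -0.11 (GEP3) and 0.05 (MCA1).

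HIS3 was the only gene of its pathway to pass. Of 15 genes in the histidine list, which holds the HIS genes, the genes for the phosphoribosyl pyrophosphate that feeds the pathway, the regulators BAS1 and PHO2 and the histidine permease HIP1, 1 fell and 0 rose, and 9 lay above 0 with a median of 0.02. HIS4, which encodes an enzyme with 3 activities of the pathway, ranged from 161 to 203 CPM in WT, with a median of 176, and from 178 to 228 CPM in K467R, with a median of 193. The strains overlapped, and the difference of 0.14 ± 0.06 did not pass (edgeR quasi-likelihood test, adjusted p = 0.747). HIS1, the first enzyme, was at 0.06 ± 0.05, HIS7 at 0.02 ± 0.04, HIS5 at 0.05 ± 0.04 and HIP1 at -0.11 ± 0.08.

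PHM8 (YER037W) encodes a phosphatase that is induced when phosphate runs short. It ranged from 13.8 to 16.5 CPM in WT, with a median of 15.0, and from 11.1 to 12.5 CPM in K467R, with a median of 11.9, so that every K467R library lay below every WT library. The log2 fold change was -0.34 ± 0.06 (edgeR quasi-likelihood test, adjusted p = 0.0427), which is a level at 0.790 of WT with a 95% interval of 0.720 to 0.866. PHM8 passed in 4 of 26 alternative fits, and in 2 of the 18 that left out 1 library, with an adjusted p between 0.0200 and 0.182. In K467N, compared with the same WT libraries, its log2 fold change was -0.08. The direct test between the mutants gave -0.26, with an interval of -0.39 to -0.12, and did not pass (edgeR quasi-likelihood test, adjusted p = 0.408). PHM8 was picked by its value in K467R, which favours a larger difference there, and the interval is not adjusted for that.

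The other genes of the phosphate regulon did not pass the test. Of 24 genes tested, 1 fell, 0 rose and 10 lay above 0, with a median of -0.01. PHO5, the secreted acid phosphatase that is the classical readout of this regulon, ranged from 486 to 627 CPM in WT and from 474 to 547 CPM in K467R (-0.12 ± 0.06). GIT1, the glycerophosphoinositol permease, was at 0.39 ± 0.16 with 1.63 to 2.70 CPM in WT and 2.07 to 3.65 CPM in K467R, and VTC1, a subunit of the vacuolar polyphosphate polymerase, at 0.14 ± 0.08.

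**Figure D1:**
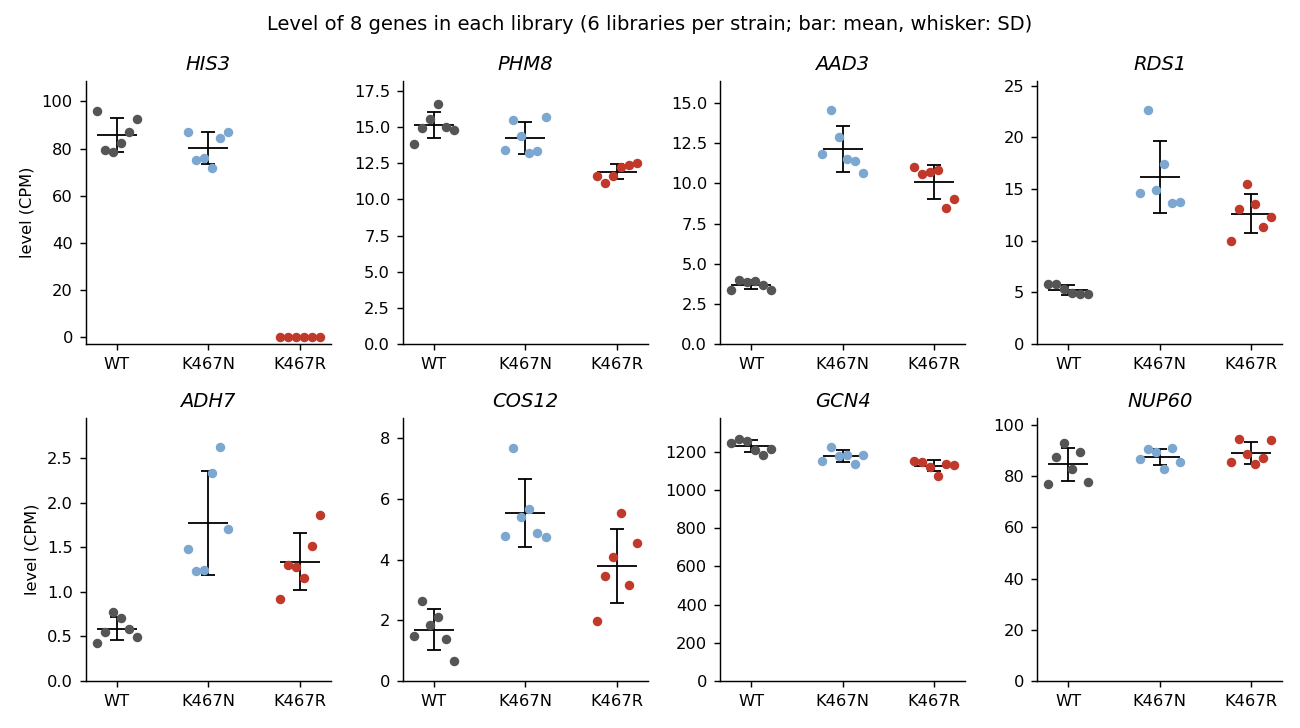
Level of 8 genes in CPM (vertical axes, linear) in each of the 6 libraries of WT, K467N and K467R, with the mean as a bar and the SD as whiskers. HIS3 is at or near 0 in K467R alone, PHM8 is lower in K467R than in WT without overlap, AAD3, RDS1 and ADH7 are higher in K467R than in WT without overlap, COS12 overlaps in 1 K467R library, GCN4 is lower without overlap, and NUP60 overlaps in 4 of 6.

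AAD3 and RDS1, the genes that rose, lie next to each other at the right end of chromosome III. AAD3 (YCR107W), named for its likeness to fungal aryl-alcohol dehydrogenases, ranged from 3.37 to 4.01 CPM in WT, with a median of 3.77, and from 8.49 to 11.0 CPM in K467R, with a median of 10.6. All 6 K467R libraries exceeded the highest WT value, a rise of 2.73-fold with a 95% interval of 2.37 to 3.14 (log2 fold change 1.45 ± 0.10, edgeR quasi-likelihood test, adjusted p = 5.06e-09). RDS1 (YCR106W), a zinc cluster transcription factor gene, ranged from 4.84 to 5.84 CPM in WT, with a median of 5.12, and from 10.0 to 15.5 CPM in K467R, with a median of 12.7. Again no library overlapped, and the rise was 2.39-fold with an interval of 1.97 to 2.89 (log2 fold change 1.26 ± 0.13, edgeR quasi-likelihood test, adjusted p = 1.19e-05). Both genes passed in all 26 alternative fits. The coding sequence of AAD15, the shorter of the pair, aligns to that of AAD3 over its full length with 97.7% identity, and reads that align to both are set aside in the counting, so the AAD3 value rests on the reads that could be placed.

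The next tested gene inward on this arm was also higher, and the 3 beyond it lay between -0.20 and 0.16 on the log2 scale. None of these 4 passed the test. ADH7 (YCR105W), an alcohol dehydrogenase dependent on NADPH, ranged from 0.427 to 0.772 CPM in WT and from 0.923 to 1.86 CPM in K467R, without overlap, and its log2 fold change of 1.19 ± 0.26 did not pass (edgeR quasi-likelihood test, adjusted p = 0.158) here or in any of 25 alternatives. It rests on 50 counts over the WT libraries and 113 over the K467R libraries. Beyond it lay YCR102C at 0.16 ± 0.16, YCR101C at -0.06 ± 0.15 and EMA35 at -0.20 ± 0.11.

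COS12 (YGL263W), a member of the COS family of subtelomeric membrane protein genes, lies farther out than any other tested gene of the left arm of chromosome VII. It ranged from 0.662 to 2.65 CPM in WT, with a median of 1.67, and from 1.99 to 5.54 CPM in K467R, with a median of 3.77, and 5 of 6 K467R libraries exceeded the highest WT value. The log2 fold change of 1.16 ± 0.25 did not pass (edgeR quasi-likelihood test, adjusted p = 0.151), and it passed in 3 of 25 alternatives, among them the fit without K467R 1, where it was 1.29 (adjusted p = 0.0187). Its inner neighbours were VEL1 at 0.02 ± 0.26 and MNT2, a mannosyltransferase gene, at -0.15 ± 0.08.

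In K467N the only genes that passed were AAD3, RDS1, ADH7 and COS12, which is 4 genes or 0.0707% of 5660. Of them, AAD3 and RDS1 also passed in K467R, and ADH7 and COS12 did not. The values in K467N were adjusted p = 2.66e-10 for AAD3, 1.41e-07 for RDS1, 0.00226 for ADH7 and 0.00085 for COS12 (edgeR quasi-likelihood test). K467N was compared with the same WT libraries, so the results of the mutants are not independent of each other. The log2 fold changes in K467R and K467N were 1.45 and 1.71 for AAD3, 1.26 and 1.61 for RDS1, 1.19 and 1.61 for ADH7, and 1.16 and 1.69 for COS12. Each estimate was smaller in K467R, but none of the differences passed the direct test of K467R against K467N in edgeR (adjusted p = 0.408 for each). These genes were taken because they passed in K467N, a choice that favours larger estimates there. Their shared direction is therefore no evidence of a weaker effect in K467R. The 95% intervals of that difference are not adjusted for this choice or for the number of genes. On the log2 scale they ran from -0.44 to -0.09 for AAD3 and -0.60 to -0.11 for RDS1. They ran from -0.85 to 0.01 for ADH7 and -0.96 to -0.10 for COS12. Across all genes the direct test called 1 lower in K467R, which was HIS3, and 0 higher, or 0.0177% of 5660. Without adjustment 635 genes had a p under 0.05 in that comparison, which is 11.2%, and DESeq2 and limma-voom called 0 higher as well.

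Most other genes near chromosome ends had values below 0. Of 254 genes within 20 kb of an end, 128 had enough counts to be tested, and 2 of them rose and 0 fell. Only 45 of the 128 lay above 0, and the median was -0.04, beside 46.9% and -0.0065 over all tested genes. These genes are weakly expressed, with a median level of 8.51 CPM within 10 kb and 16.9 CPM between 10 and 20 kb, and the lowest of 5 equal groups of all tested genes by level had a median of -0.03 with 40.0% above 0. The part of level in the values near chromosome ends was not tested. The 41 tested genes within 10 kb of an end had a median of -0.07, the 87 between 10 and 20 kb a median of -0.03, and the 2863 more than 200 kb from an end a median of -0.0083. Among the 7 COS genes tested 1 lay above 0, and COS1, which aligns to COS3 with 96.2% identity and is uncertain for that reason, was at -0.57 ± 0.13, with 3.46 to 5.19 CPM in WT and 2.53 to 3.49 CPM in K467R. Medians by chromosome lay between -0.02 for chromosome XV and 0.03 for chromosome I, the chromosome of NUP60.

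For the large majority of genes the fit over all 18 libraries bounded how far these K467R and WT libraries differed in relative level. Libraries were scaled to each other, so a rise or fall shared by all genes could not be seen. Like the p-values, the intervals rest on the spread between these samples, which may be technical. The 95% interval of the fold change lay wholly within 1.2-fold of WT for 3817 genes, or 67.4%, within 1.5-fold for 5388 genes, or 95.2%, and within 2-fold for 5610 genes, or 99.1%. Only 20 genes had an estimate beyond 1.5-fold, 11 higher and 9 lower, and 6 beyond 2-fold, of which 5 were higher. The median interval reached 0.143 log2 units to either side, 0.265 in the lowest of 5 equal groups of genes by level and 0.114 in the highest. These intervals are not adjusted for the number of genes tested, so passing the test took a larger difference than their widths alone imply. PHM8, at 0.790 of WT, had a standard error of 0.064, beside a median of 0.069 over all genes. It passed narrowly (edgeR quasi-likelihood test, adjusted p = 0.0427) and in 4 of 26 alternative fits. Differences of 1.2-fold and somewhat more could therefore be missed for many genes.

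**Figure D2:**
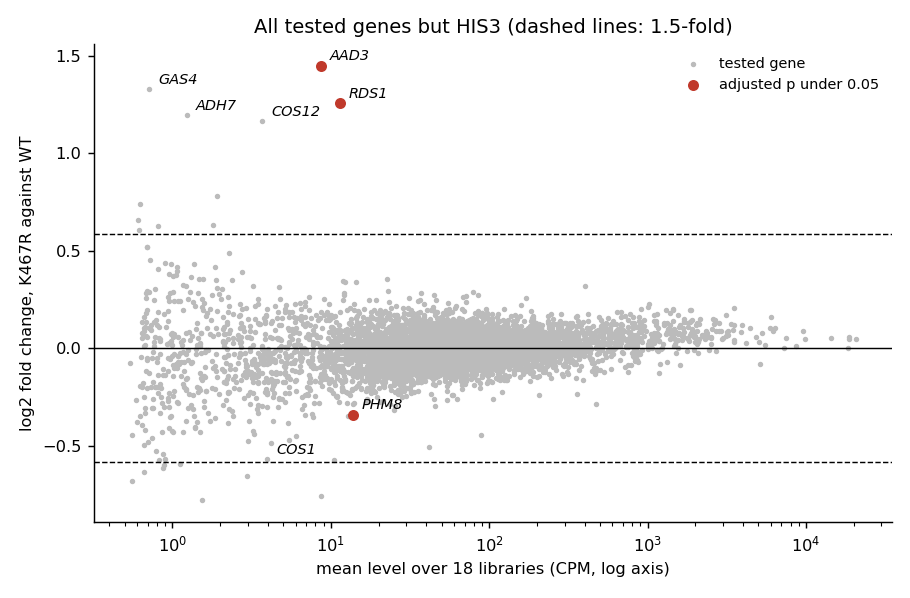
Log2 fold change of K467R against WT (vertical axis) against mean level over 18 libraries in CPM (log horizontal axis) for every tested gene except HIS3, which lies far below the range drawn. Red points are the 3 other genes with an adjusted p under 0.05, grey points are all other genes, labels mark COS1, COS12, ADH7 and GAS4 besides, and the dashed lines are 1.5-fold.

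Next in order of p came genes of several functions that missed the threshold. GAS4, a glucanosyltransferase gene of spore wall assembly, had 0.210 to 0.772 CPM in WT and 0.793 to 1.21 CPM in K467R, without overlap, at 34 and 85 counts in all (1.33 ± 0.33, edgeR quasi-likelihood test, adjusted p = 0.341). HEM3, the porphobilinogen deaminase of heme synthesis, had 81.8 to 89.8 CPM in WT and 73.1 to 83.5 CPM in K467R (-0.16 ± 0.04, with the same adjusted p). DAL7, a malate synthase of allantoin breakdown, had 31.8 to 36.1 CPM in WT and 29.2 to 31.2 CPM in K467R, without overlap (-0.16 ± 0.04, edgeR adjusted p = 0.362). GCN4, the activator of amino acid synthesis genes, had 1184 to 1266 CPM in WT and 1074 to 1153 CPM in K467R, also without overlap. Its log2 fold change of -0.13 ± 0.04 did not pass in edgeR (adjusted p = 0.712) and was called lower by DESeq2 (adjusted p = 0.0046).

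Other genes whose libraries did not overlap had small differences. The higher ones were the Mediator subunit gene PGD1 at 0.24 ± 0.08, the tRNA methyltransferase subunit gene GCD14 at 0.11 ± 0.04, MTC1 at 0.11 ± 0.05 and the tyrosyl-tRNA synthetase gene TYS1 at 0.07 ± 0.04. The lower ones were the noncoding RNA ICR1 at -0.35 ± 0.11, the maltose permease gene MAL31 at -0.27 ± 0.09, the fatty acid elongase gene ELO1 at -0.16 ± 0.05 and THI3, a regulator of thiamine genes, at -0.14 ± 0.04. Each had an adjusted p of 0.747 in edgeR. For PGD1 and ELO1 the estimate leaned on K467R 1. PGD1 was at 49.5 CPM in that library and at 36.1 to 38.0 CPM in the other K467R libraries. ELO1 was at 84.6 CPM in K467R 1 and at 106 to 112 CPM in the others of that strain. Lack of overlap was met by 8 genes of 5660 in each direction, 0.141%, and most of them did not pass the test. How many genes would meet it by chance was not tested, so lack of overlap alone does not show a difference.

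Of the genes of the basket and the pore 0 passed. Since only 0.0707% of all tested genes passed, a count of 0 in a list of this size, here and below, says little about its genes. All 9 basket genes had a 95% interval within 1.2-fold of WT, with a median log2 fold change of 0.0076, 5 above 0, and values of 0.01 ± 0.08 for MLP1, 0.01 ± 0.09 for MLP2, 0.02 ± 0.05 for NUP1, -0.00 ± 0.04 for NUP2 and 0.08 ± 0.05 for ESC1, a silencing protein of the nuclear periphery. For other nucleoporins all 30 intervals lay within 1.5-fold and 22 within 1.2-fold, beside 95.2% and 67.4% of all tested genes. Of these 30 genes 0 passed and 12 lay above 0. The highest was DYN2, the dynein light chain shared with the pore, at 0.21 ± 0.09. Of 12 importin genes 0 passed and 0 lay above 0, with a median of -0.04, and of 12 genes for exportins and the Ran cycle 6 lay above 0, with a median of 0.0011. For mRNA export, the 21 genes of TREX-2, THO/TREX and the export receptor had a median of 0.02 with 12 above 0, among them SAC3, the TREX-2 scaffold, at -0.11 ± 0.08 and THP2 of the THO complex at 0.17 ± 0.07.

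Genes of the enzymes that place and remove acetyl groups also did not pass, where 0.0707% of all tested genes did. The 20 genes of the SAGA coactivator, which holds the acetyltransferase Gcn5, had a median of 0.02 with 13 above 0, and the 12 of NuA4 a median of 0.02 with 7 above 0. ESA1, the catalytic subunit of NuA4, ranged from 39.1 to 45.8 CPM in WT and from 33.2 to 40.9 CPM in K467R (-0.13 ± 0.05). Of 17 lysine deacetylase genes 7 lay above 0. SIR2, the silencing deacetylase, ranged from 44.8 to 48.1 CPM in WT and from 39.8 to 45.4 CPM in K467R (-0.13 ± 0.04), and HOS3 from 66.8 to 71.9 CPM and from 56.9 to 68.6 CPM (-0.09 ± 0.05). Both overlapped between strains, and neither passed (edgeR quasi-likelihood test, adjusted p = 0.747 for each).

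Of 17 regulators of Start, the commitment to a cell cycle, 0 passed, beside 0.0707% of all tested genes. The 95% interval lay within 1.5-fold of WT for all 17 and within 1.2-fold for 13. Of the 17 genes 8 lay above 0, and the median was -0.0044. CLN3, the most upstream G1 cyclin, ranged from 71.6 to 97.0 CPM in WT, with a median of 81.8, and from 72.0 to 84.8 CPM in K467R, with a median of 76.0 (-0.12 ± 0.07). WHI5, the repressor of Start, ranged from 9.81 to 15.0 CPM in WT, with a median of 11.9, and from 11.4 to 18.4 CPM in K467R, with a median of 13.2 (0.21 ± 0.12). The strains overlapped for both genes, and neither passed (edgeR quasi-likelihood test, adjusted p = 0.747 for each). The later G1 cyclins CLN1 and CLN2 were at -0.07 ± 0.05 and -0.03 ± 0.04, the transcription factor subunits SWI4, SWI6 and MBP1 at 0.03 ± 0.12, -0.00 ± 0.05 and -0.03 ± 0.07, and the inhibitor SIC1 at 0.09 ± 0.07.

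Genes that follow in the cycle gave small values in both directions. Of 50 targets of SBF and MBF, the factors that act at Start, 0 passed and 26 lay above 0, with a median of 0.0075 and, among the examples, the cyclin gene PCL1 at 0.19 ± 0.07 and the repressor gene YOX1 at 0.13 ± 0.06. In the CLB2 cluster of G2/M 4 of 20 genes lay above 0, with a median of -0.04 and the mitotic cyclin gene CLB2 itself at -0.14 ± 0.06. The median coding length in that list was 2124 bases, beside 1245 over all genes, and without the coding-length trend described below its median was 0.0008.

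Among the lists with medians farther from 0 were those of cytosolic ribosomal proteins and of iron uptake. Of 137 ribosomal protein genes, which encode the protein part of the translating ribosome, 136 lay above 0 and 0 passed, with a median log2 fold change of 0.10. Examples are RPS9A at 0.18 ± 0.06, RPL34A at 0.20 ± 0.09 and RPL39 at 0.23 ± 0.11. Relative to the WT mean the median of these genes lay between -0.06 and 0.31 in the K467R libraries and between -0.20 and 0.14 in the WT libraries, so the strains overlapped. The 26 genes of the iron regulon, which Aft1 turns on when iron is short, had 4 above 0, 0 past the test and a median of -0.13, among them the reductase genes FRE3 at -0.27 ± 0.10 and FRE5 at -0.76 ± 0.41 and the siderophore transporter gene ARN2 at -0.26 ± 0.15. The K467R libraries lay between -0.41 and 0.13 and the WT libraries between -0.37 and 0.31, which shows a wide spread within each strain. With 1 library left out at a time the iron regulon median ran from -0.20 without WT 6 to -0.06 without WT 4, and that of the ribosomal protein genes was 0.06 without K467R 1.

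In all 43 lists the K467R libraries overlapped the WT libraries, and 42 medians lay within 0.1 of 0. Methionine and sulfur assimilation genes had 18 of 24 above 0 and a median of 0.07, with the O-acetylhomoserine sulfhydrylase gene MET17 at 559 to 632 CPM in WT and 591 to 706 CPM in K467R (0.14 ± 0.04). Gcn4 targets of amino acid synthesis had 34 of 48 above 0 and a median of 0.04, with LEU1 at 0.12 ± 0.05 and ILV5 at 0.20 ± 0.08, and this list also holds HIS3 and GCN4 itself. Proteasome genes had 27 of 34 above 0 and a median of 0.06, with RPT4 at 0.11 ± 0.05, and chaperone genes 23 of 29 and 0.04, with SIS1 at 0.11 ± 0.06. K467R 1 and K467R 5 stood at one end of the first principal component described below, with WT 3 and WT 2 at the other. A fit without K467R 1 and K467R 5 kept every WT library. Its medians were 0.04 for methionine and sulfur assimilation, 0.0079 for Gcn4 targets, 0.01 for the proteasome and 0.0082 for chaperones. For each of these lists K467R 1 and K467R 5 were the highest K467R libraries. Lower medians thus followed from leaving them out, and no conclusion is drawn from the drop. Without K467R 1 alone the medians of these lists were 0.05, 0.02, 0.03 and 0.03. With the coding-length trend described below removed, they were 0.08, 0.05, 0.03 and 0.06, in the same order. Besides HIS3, AAD3, RDS1 and PHM8, no member of any list passed.

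**Figure D3:**
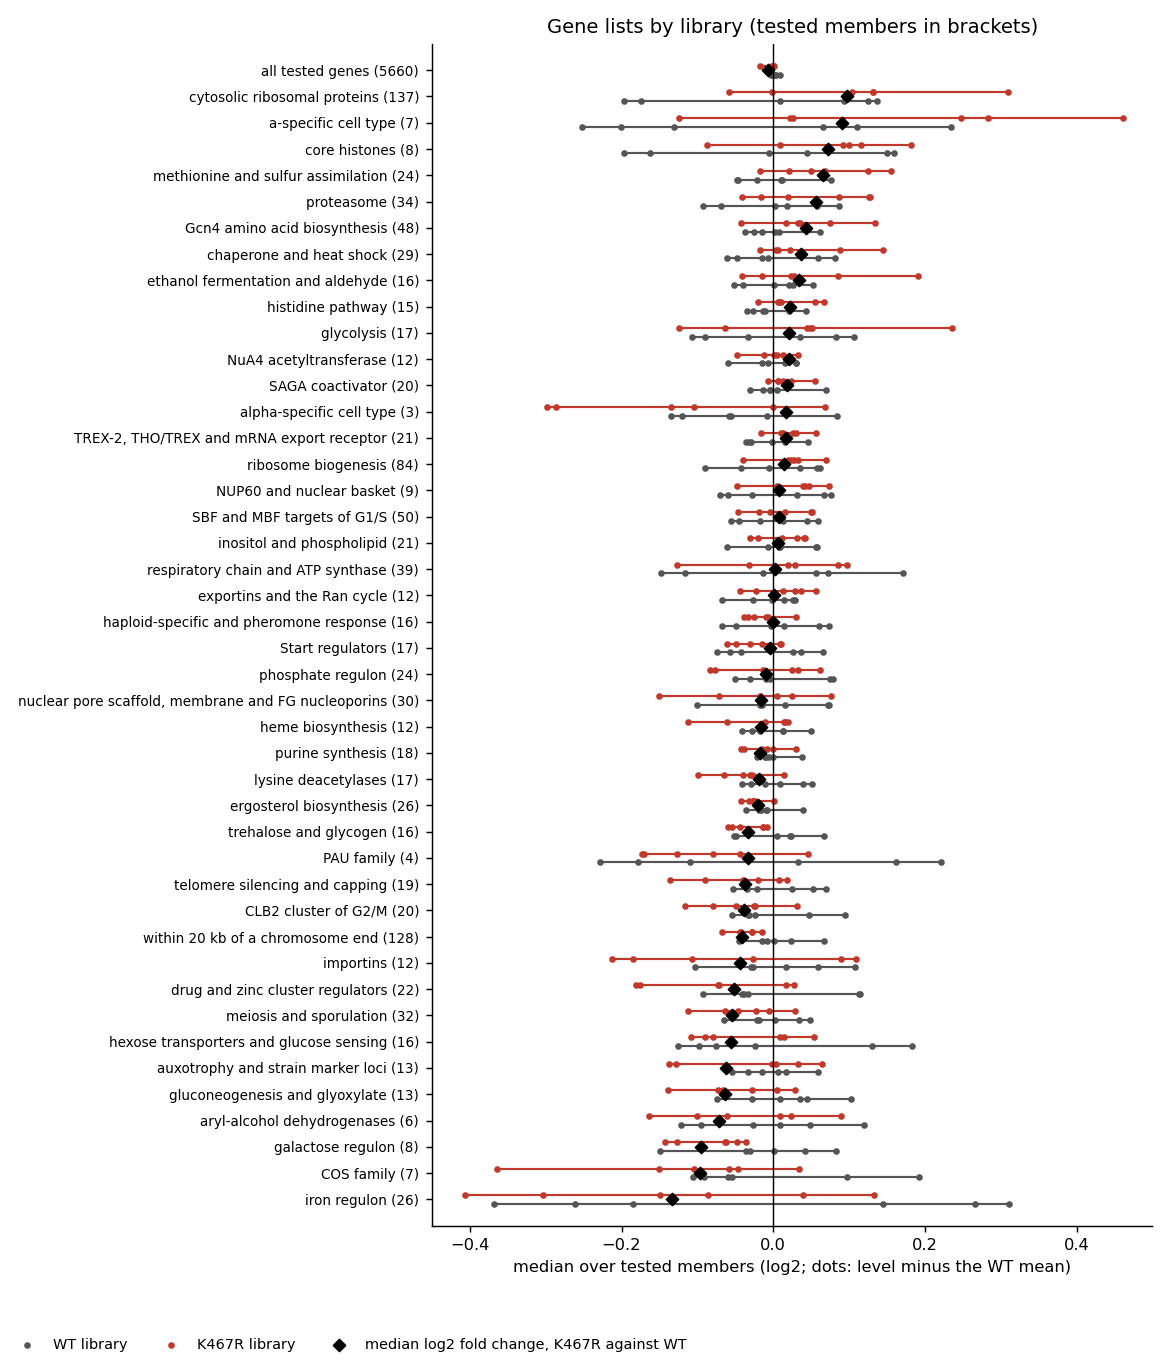
Median over the tested members of each of 43 gene lists, as the log2 level of each library minus the WT mean (dots, WT grey, K467R red, lines spanning the 6 libraries) and as the log2 fold change of K467R against WT (diamonds). The horizontal axis is in log2 units, and the red and grey lines overlap in every list, with the ribosomal protein genes at 0.10 and the iron regulon at -0.13.

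Over all tested genes the log2 fold changes moved with coding length. Genes were put in 5 groups of equal size by coding length. The shortest group, up to 654 bases of coding length, lay at a median of 0.07 on the log2 scale with 75.3% above 0, and the longest group, from 2124 bases, at a median of -0.05 with 22.2% above 0. In K467N, compared with the same WT libraries, these medians were -0.04 and 0.03. In single libraries the median level of the shortest group minus that of the longest, relative to the WT mean, was 0.33 in K467R 1, 0.25 in K467R 5 and -0.12 in K467R 3, and ran from -0.27 to 0.20 in WT. The mean was 0.123 ± 0.164 in K467R and -0.0004 ± 0.200 in WT (SD, n = 6 each), and the difference did not pass an exact two-sided permutation test (p = 0.271), a comparison chosen after these values were seen.

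Beside this trend the ribosomal protein genes, with a median coding length of 432 bases, are short. Values also differed by level. The highest of 5 equal groups of genes by level had a median of 0.03 with 66.3% above 0. The lowest had -0.03 with 40.0%. The part of level in the ribosomal protein values was not tested. The 441 other genes of that length or less had a median of 0.08 with 316 above 0, or 71.7%. Once each library was freed of the length trend, ribosomal protein genes had a median of 0.04 instead of 0.10. Without K467R 1 and K467R 5 it was also 0.04. For these genes K467R 1 was the highest K467R library, so that drop followed in part from leaving it out. The core histone genes moved from 0.07 to -0.0023 when the trend was removed. The importins, with a median coding length of 3057 bases, then moved from -0.04 to 0.0013. Without K467R 1 and K467R 5, the lowest K467R libraries for the importins, the importin median was 0.02. The iron regulon had a median of -0.10 with the trend removed. Not every list came nearer to 0. The respiratory chain and ATP synthase genes, with a median coding length of 462 bases, moved from 0.0024 to -0.03. Chaperone genes, with a median of 1770 bases, moved from 0.04 to 0.06. What gives rise to the trend was not tested.

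**Figure D4:**
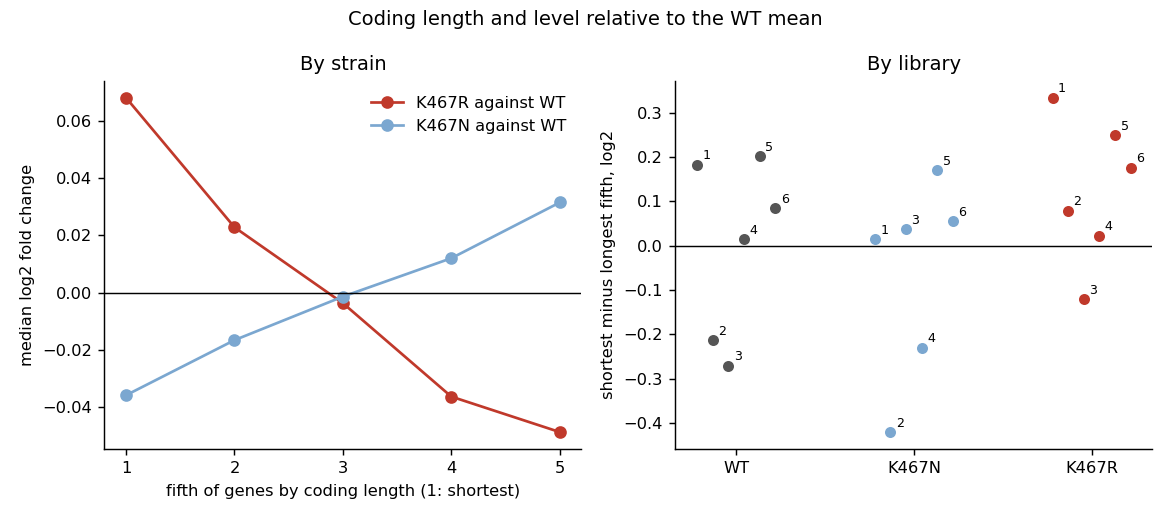
Left, median log2 fold change against WT for 5 equal groups of genes from the shortest to the longest coding length, in K467R (red) and K467N (blue), which share the WT libraries. Right, for each numbered library, the median of the shortest group minus that of the longest in log2 units relative to the WT mean, where K467R 1 is highest at 0.33 and the 3 strains overlap.

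The separation of libraries by strain was examined with and without HIS3. The first principal component of the 12 libraries held 36.8% of the variance, of which 28.8% lay between the strains, and the second held 15.8%, of which 70.3% lay between the strains. With HIS3 left out the second component held 12.1% and only 0.768% of it lay between the strains, while the first held 39.2% with 14.1% between the strains. K467R 1, at 18.6, and K467R 5, at 10.1, stood at one end of the first component, and WT 3 and WT 2, at -11.1 and -10.7, at the other.

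**Figure D5:**
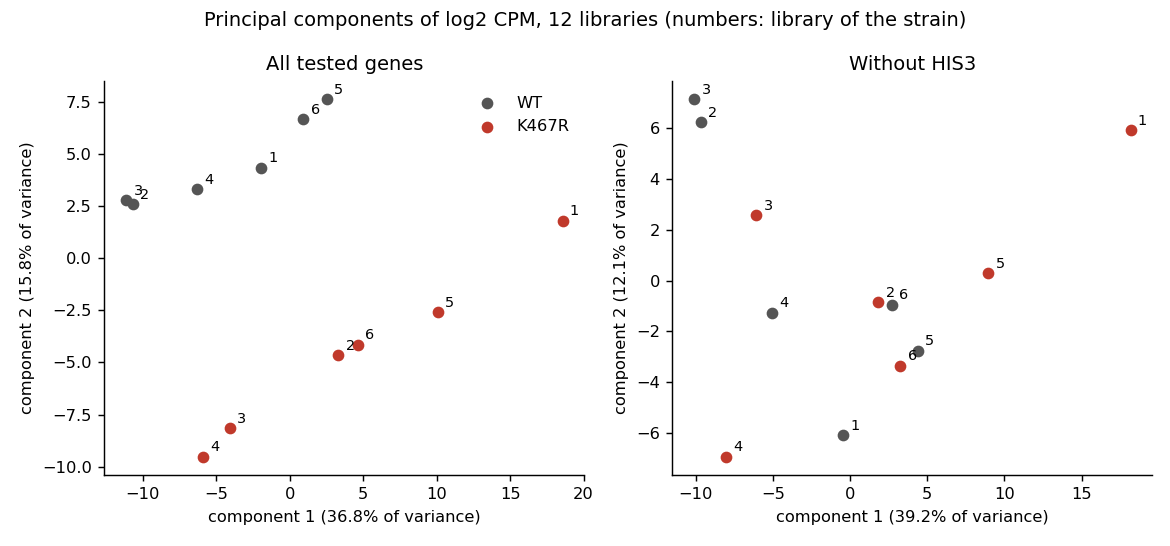
First and second principal components of log2 CPM (axes in component units) for the 6 WT (grey) and 6 K467R (red) libraries, with all tested genes on the left and without HIS3 on the right. The strains separate along the second component on the left, where 70.3% of it lies between strains, and intermix on the right, where 0.768% does.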

How the data were processed

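The deposited values are raw counts, 1 file per library with 7036 features, and the summary lines of the counter were kept out of library sizes. Per the submitters' processing notes, bcl2fastq 2.20.0.422 was used, as were STAR 2.5.3a and the counter HTSeq 0.6.1p1. Per the labels' protocols, the library kit was stranded, with 600 ng of RNA as input and 12 PCR cycles. No source used here gives the genome build, the annotation or the strand setting of the counting, which is why coordinates are left out, and reads from overlapping antisense genes may not be told apart. RefSeq's R64 annotation gave names, gene order and coding lengths for the 6000 features that matched by identifier, and 1036 did not match.

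The test was run with edgeR 4.0.16 in R 4.3.3: filterByExpr left 5660 features tested and 1376 not, libraries were scaled by TMM, and all 18 libraries entered 1 robust quasi-likelihood fit with strain as the only term. Contrasts were two-sided with Benjamini-Hochberg adjustment at 0.05, and 95% intervals came from the same fit. The steps were tested on counts simulated with the spread that this same fit estimated. Those counts held no coding-length trend, so the check covers the working of the steps and not the spread of these libraries. Of 153 pairs of libraries none was a duplicate (chi-square per degree of freedom 2.40 to 83.4). The labels give no batch or date. No molecular identifiers were used, so count intervals cover counting error only.

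The comparison, its gene lists and the tests were chosen with earlier results of these data known. The 43 lists are described by counts and medians, with no test. A further list is not reported here. The symbols FLO8, ARG5,6, AAD16, ADE5,7 and IMD1 matched no feature. Named genes were NUP60, the genes that passed, the 20 of smallest p among the rest, those whose libraries did not overlap, neighbours of NUP60 and HIS3, the outermost genes on the arms of AAD3 and COS12, and in each list the 4 members with the lowest p, with all members of the basket, histidine and Start lists, and the text prints examples. Near-identical paralogs shared 95% of bases or more over at least 50% of the shorter coding sequence (BLAST 2.17.0).

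Alternatives were DESeq2 size factors, no filter, a minimum of 10 CPM in at least 6 libraries, limma-voom (limma 3.58.1), DESeq2 1.42.0, the 12 libraries alone, each library left out in turn, and K467R 1 and 5 left out together. One more, chosen after seeing the data, took a coding-length trend out of each library. Summaries and figures were made with matplotlib 3.10.9 and pandas 2.3.3 in Python 3.11.15.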

Additional observations from a re-analysis of the deposited data

Results flagged for a closer look

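In each strain the genes that passed or came next in p were examined for a library far from the other 5, by the gap to the nearest library over the range of the group. This picked out 4 of 50 groups. Chance picks out about 1 in 20 where values spread smoothly. Counts at 0 do not, and the genes were chosen by p, so the 4 cannot be set against that rate. HIS3 in K467R 1 was at 0.0710 CPM, which is its 1 count, with 0 in the other K467R libraries, so this rule was bound to flag it. AIM33 in K467R 6 was at 6.34 CPM, with the next K467R library at 4.83 CPM. PRP28, a helicase gene of the spliceosome, was at 37.6 CPM in K467R 2, with the next at 32.9 CPM. POG1 in WT 1 was the lowest WT value at 14.2 CPM, with the next at 15.9 CPM. HIS3 also differed between the mutants by its direct test, K467R against K467N, with a fitted log2 fold change of -11.95 (edgeR quasi-likelihood test, adjusted p = 2.06e-21), a value that depends on the prior count since K467R had 1 count.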

How the results depend on the processing

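The count of genes higher in K467R than in WT stayed at 2 or 3 in every alternative, and HIS3, AAD3 and RDS1 passed in all 26. The count of genes lower was 2, and 1 with DESeq2 size factors, no filter, limma-voom, the 12 libraries alone, K467R 1 and 5 left out together, or the coding-length trend removed. It was 1 to 2 when each library was left out in turn, with 2 only without WT 1 and without K467N 6. The gene lost was PHM8 wherever the count was 1, and the cause was not tested. In DESeq2 the count was 3, with GCN4 added. Against K467N, 0 were higher and 1 lower throughout. No result changed direction past the threshold. The count at an unadjusted p under 0.05 ran from 170 without K467R 1 and 5 to 550 without K467R 4, beside 321, with 188 without K467R 1, 194 without WT 2 and 186 without WT 3. No paired analysis was possible because the labels give no replicate numbers, and those used here follow accession order and only name libraries.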
